A study of Homo sapiens with 4 samples.

Results

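Replication-dependent histone genes were examined in the RNA-seq data of HepG2 cells, a human hepatoblastoma-derived line used as a model of liver cancer, with and without an enhancer of CEBPB, the gene for the transcription factor C/EBPβ. Wild-type (WT) HepG2 cells were compared with C/EBPβ enh-/- HepG2 cells, in which CRISPR/Cas9 had removed the enhancer from both alleles. There were 2 libraries of each genotype, both grown in the same serum-containing medium with no drug treatment in the labels. How many clones the deleted cells represent, and whether the 2 libraries of a genotype came from separate cultures, is not stated in the sources used here, so the p-values measure only the spread between these libraries. The members were the protein-coding genes now named H1-1 to H1-6, H2AC, H2BC, H3C and H4C, formerly HIST1H to HIST4H. Of 70 genes with such names in the current annotation, 36 matched an identifier in the expression files, out of 57768 gene entries in all. The other 34 matched no identifier and were not analysed here. The matched genes were all 6 of the H1 genes, 9 of 17 for H2A, 11 of 19 for H2B, 5 of 13 for H3 and 5 of 15 for H4.

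These genes supply the H1, H2A, H2B, H3 and H4 proteins that package newly copied DNA, and their mRNAs accumulate in S phase and are destroyed when DNA synthesis stops. They lie in clusters, most of them on chromosome 6, and usually have no introns. Instead of a poly(A) tail their mRNAs end just after a stem-loop, which is bound by the stem-loop binding protein SLBP. The 3′ end is cut with the help of the U7 small nuclear RNA, and NPAT directs transcription of the clusters at the start of S phase. In bulk RNA a smaller share of cells in S phase and less histone mRNA per cell cannot be told apart.

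The stem-loop was used to check what the members share beyond their names. The 16-base pattern of the histone stem-loop, with its variable positions left free, was searched for on the sense strand within 300 bases after the stop codon. It was present in 35 of the 36 members, at 22 to 67 bases after the stop codon. Of 19403 coding transcripts, 1 per gene, 38 (0.196%) held the pattern, and the 3 that were not members belonged to H2AX, H3-4 and H3-7. The exception among the members was H2BC12L on chromosome 21, which lies outside the clusters and was barely detected. The 5 forms found are shown because the H4 form differs from those of the other classes, with the stem-loop in capitals and 5 bases on either side in lower case (GRCh37, sense strand).

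H3C13: ctaaaGGCTCTTTTCAGAGCCactgc
H1-1: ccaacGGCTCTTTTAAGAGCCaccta
H2AC20: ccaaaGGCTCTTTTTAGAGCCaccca
H2AC11: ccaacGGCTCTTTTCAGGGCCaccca
H4C16: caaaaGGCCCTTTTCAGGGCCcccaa

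The form of H3C13 was the most frequent, in 21 members of the H1, H2A, H2B and H3 classes. The form of H1-1 was found in 7 members, 4 of them H2B genes. All 5 H4 genes had the form of H4C16, and no member of another class had it. H2AC20 and H2AC11 each had a form of their own.

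FPKM (fragments mapped to a gene, scaled to transcript length and to the fragments mapped in the library) was the unit of all levels. Of the 36 members, 28 averaged at least 1 FPKM across the 4 libraries and entered the test, among 12491 genes. Several were among the most abundant mRNAs measured. The mean FPKM of the tested members ranged from 3.21 for H3C12 to 1192 for H1-2, with a median of 269 against 9.47 for all tested genes, and 22 of the 28 had a mean of at least 100, as did 5.02% of all tested genes. Together the 36 members took 2.54% of the total FPKM of WT library 1, 1.80% of WT library 2, 1.51% of C/EBPβ enh-/- library 1 and 1.44% of C/EBPβ enh-/- library 2. The labels name total RNA and an RNA-seq library, but their extraction text describes antibody capture of histone-bound DNA rather than RNA extraction, and whether the RNA was selected by poly(A) or by removal of ribosomal RNA is not stated in the sources used here. TERC, a non-coding RNA without a poly(A) tail, had FPKM values of 742 and 539 in WT and 1001 and 482 in C/EBPβ enh-/- cells, while RN7SK and RNU7-1 were listed at 0 in all 4 libraries, and RPPH1, RMRP, RN7SL1 and SCARNA2 were not matched.

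**Figure D1:**
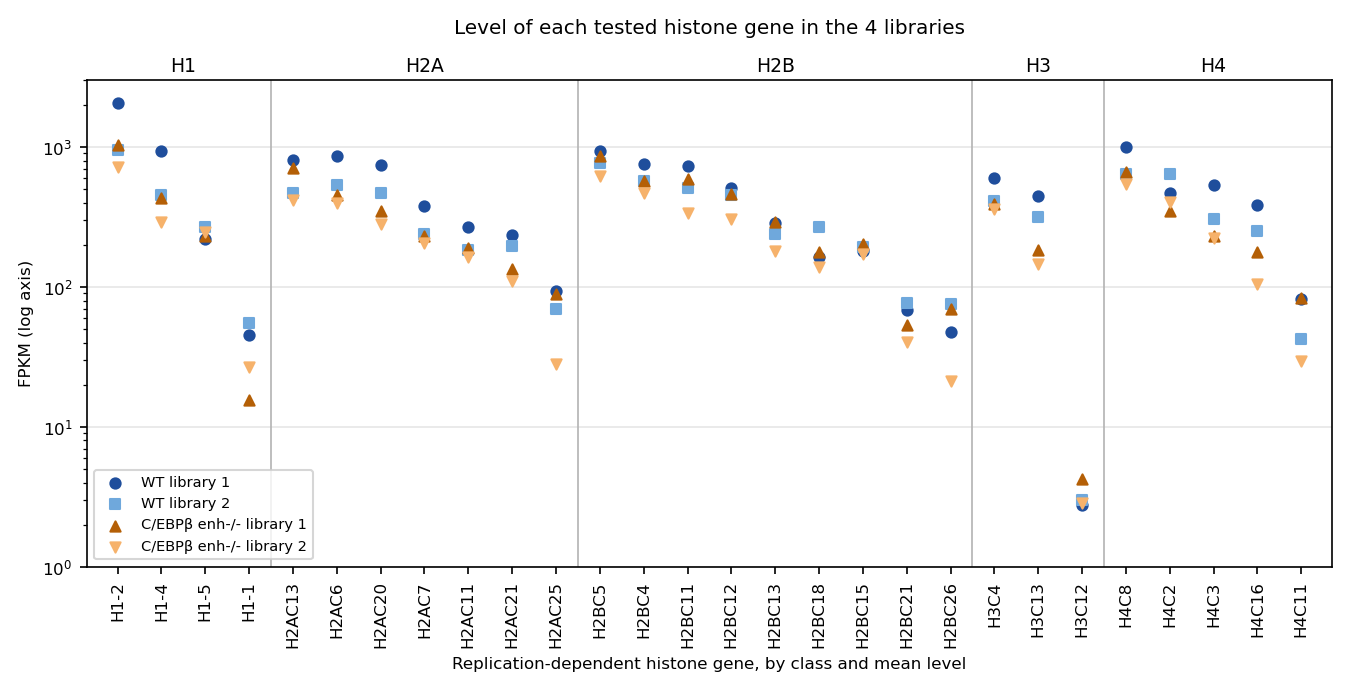
FPKM (log axis) of the 28 tested histone genes in each of the 4 libraries, ordered by class and mean level. H1-2 was the most abundant and H3C12 the least, and WT library 1 (dark blue circles) held the highest of the 4 values for 18 of the 28 genes.

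The libraries were first checked against their labels. CEBPB (chr20:48807367-48809205, GRCh37) had FPKM values of 30.6 and 19.2 in WT and 12.4 and 11.8 in C/EBPβ enh-/- cells. Its log2 fold change of -0.94 ± 0.27 (SE) did not pass the threshold (limma, adjusted p = 0.125), and was -1.27 to -0.62 with each library left out. All 17 hepatocyte or HepG2 markers, ALB and AFP included, were under an FPKM of 1 in all 4 libraries, with a highest value of 0.428, so the labelled cell line was not supported by its defining markers. KRT8 and KRT18, keratins of simple epithelia, were abundant and fell in C/EBPβ enh-/- cells, by 1.68 and 1.52 on the log2 scale (limma, adjusted p = 0.0325 and 0.0243). Both calls were lost after rescaling to the same total (limma, adjusted p = 0.0673 and 0.0548). A replicate block with GC and length correction ended both too (0.0606 and 0.0752), and the block alone that of KRT18 (0.0524). Centring on the median and rescaling to protein-coding genes ended that of KRT8 (limma, adjusted p = 0.0607 and 0.0690). With each library left out the folds were -1.94 to -1.41 for KRT8 and -1.60 to -1.45 for KRT18. EPCAM and CDH1 were near 0. Of 7 fibroblast markers, COL1A1, COL3A1 and PDGFRB had a mean FPKM of at least 1, with a summed level of 50.2 to 54.3 in WT and 57.6 to 73.4 in C/EBPβ enh-/- libraries over the whole list. COL3A1 set the higher sum (33.3 and 31.9 in WT, 45.8 and 55.7 in C/EBPβ enh-/- cells), whereas PDGFRB (4.15 and 5.59 against 1.52 and 2.27) and DCN (1.33 and 1.24 against 0.110 and 0.392) were below both WT libraries and COL1A1 overlapped. All 4 leukocyte markers were under 1 in every library. The part of these markers in the results below was not tested. C/EBPβ enh-/- library 1 was the shallowest, at roughly 21600000 fragments against 39400000 to 48400000 in the other libraries, and even there the least abundant tested member, H3C12, stood for about 45.6 fragments if 500 bases long.

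Histone levels were lower in the C/EBPβ enh-/- libraries on average, but none of the members passed the test. Of the 28 tested members, 26 had a log2 fold change below 0, as did 62.6% of all tested genes, and their median was -0.45 against -0.14 for all genes. Both C/EBPβ enh-/- libraries lay below both WT libraries for 13 members and above both for 0, and the values overlapped for 15. Among all tested genes the corresponding shares were 37.5% below and 15.1% above. With limma and Benjamini-Hochberg adjustment over all 12491 genes, 0 of the 28 members passed the threshold of 0.05, against 1.46% of all tested genes (1.21% lower, 0.248% higher). At an unadjusted p under 0.05, 8 members were lower and 0 higher, against 16.9% and 3.86% of all genes. With 2 libraries per genotype an exact permutation test of a single value cannot give a p below 0.333, and on simulated data limma called 98% of 200 genes with a log2 change of 2 and 0% of those with a log2 change of 1. Fitted among the 10909 protein-coding genes alone, a choice made after the data were seen, 2 members passed, H1-1 and H3C13, both lower, against 4.19% of those genes lower and 0.55% higher.

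Within WT the 2 libraries were as far apart as the genotypes. The median log2 difference of the members was -0.46 between WT library 2 and WT library 1, and -0.35 between C/EBPβ enh-/- libraries 2 and 1, where all tested genes had medians of 0.01 and -0.09. WT library 1 was the highest of the 4 for 18 of the 28 members and for 30.2% of all tested genes, and C/EBPβ enh-/- library 2 was the lowest for 24 members and for 34.2% of all genes. Set side by side, the medians of the members were -0.41 for C/EBPβ enh-/- library 1 against WT library 1, -0.05 for the same library against WT library 2, -0.88 for C/EBPβ enh-/- library 2 against WT library 1 and -0.47 for it against WT library 2. The order of the members by level was nonetheless alike, with Pearson's r across the 28 genes of 0.952 to 0.972 between any 2 libraries on the log2 scale, a description across genes that are not independent.

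The summed FPKM of the 36 members gives the same picture and is less affected by how fragments were divided among similar copies. WT libraries 1 and 2 summed to 13849 and 9677, and C/EBPβ enh-/- libraries 1 and 2 to 9255 and 6986. The C/EBPβ enh-/- mean of 8120 ± 1605 (SD, n = 2) was 0.690 times the WT mean of 11763 ± 2951 (SD, n = 2). The values did not overlap, but WT library 2 lay only slightly above C/EBPβ enh-/- library 1 and well below WT library 1. After rescaling to the same total FPKM per library the sums were 13835 and 9827 in WT and 8217 and 7868 in C/EBPβ enh-/- cells. Their ratio was 0.680, again without overlap. Rescaled to the same sum over protein-coding genes that are not members, the sums were 13277 and 8737 in WT and 9627 and 7867 in C/EBPβ enh-/- cells, giving a ratio of 0.795 with overlapping values.

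**Figure D2:**
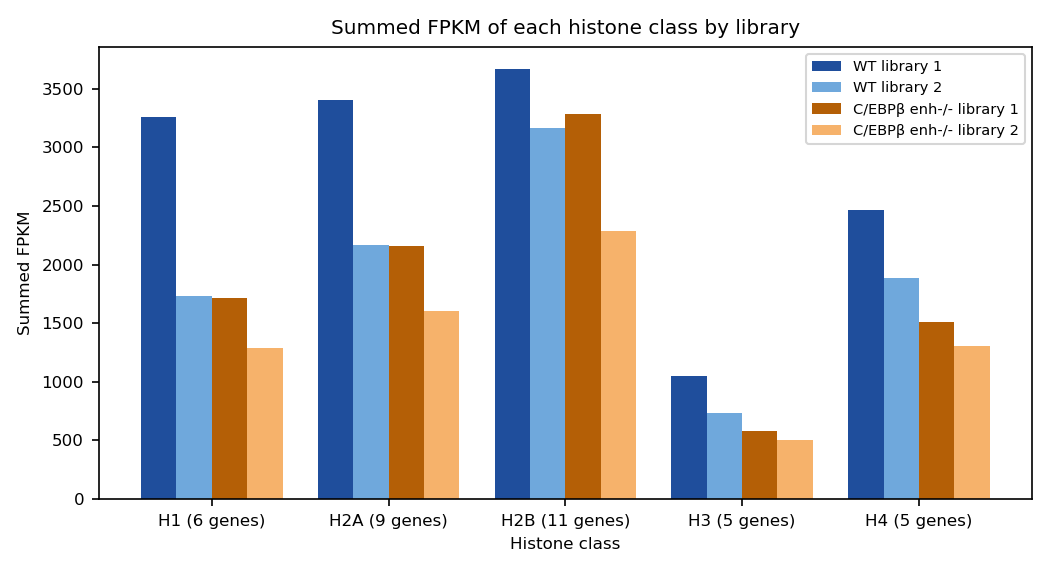
Summed FPKM of each histone class in each library, as deposited, with the number of genes summed. The H1, H2A, H3 and H4 sums of both C/EBPβ enh-/- libraries lie below both WT libraries, and those of H2B overlap. After rescaling to protein-coding genes the H1 and H2A sums overlap too (ratios 0.689 and 0.778). After rescaling to the same total the H2B sums do not overlap (ratio 0.798).

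Linker histones of the H1 class bind the DNA that enters and leaves the nucleosome. H1-2, the most abundant member, had FPKM values of 2057 and 956 in WT and 1038 and 718 in C/EBPβ enh-/- cells, and the genotypes overlapped. H1-4 had 940 and 454 in WT and 432 and 293 in C/EBPβ enh-/- cells, which did not overlap but differed by less than the WT libraries did from each other. Both genes set the class sum, which was 3262 and 1735 in WT and 1718 and 1285 in C/EBPβ enh-/- cells. H1-1 (ENSG00000124610.3, chr6:26017260-26018015, GRCh37, minus strand, a single exon) was less abundant, at 45.5 and 55.1 in WT and 15.7 and 26.8 in C/EBPβ enh-/- cells. Here the genotypes were well apart, and its log2 fold change of -1.25 ± 0.30 (SE) was the lowest of any member (limma, adjusted p = 0.0900). H1-5 was even, at 219 and 270 in WT and 231 and 247 in C/EBPβ enh-/- cells. The median of the 4 tested H1 genes was -0.79, and -0.26 without WT library 1. H1-6, the testis linker histone, had values of 0.147 to 0.749 and H1-3 was above 0 only in WT library 1, at 0.265.

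H2A and H2B pair as dimers in the nucleosome, and many of their genes lie head to head with a shared promoter. In the H2A class H2AC20 (ENSG00000184260.4, chr1:149858468-149858961, GRCh37) had FPKM values of 744 and 472 in WT and 347 and 281 in C/EBPβ enh-/- cells, giving a log2 fold change of -0.92 ± 0.28 (SE; limma, adjusted p = 0.136). Its neighbour H2AC21 had 236 and 195 in WT and 134 and 110 in C/EBPβ enh-/- cells, and the libraries of each genotype were close together (-0.82 ± 0.23, SE; limma, adjusted p = 0.117). H2AC6 (869 and 536 against 452 and 396) and H2AC7 (378 and 239 against 233 and 207) were also below both WT libraries, though for H2AC7 by little. The values overlapped for H2AC13, at 810 and 469 in WT and 713 and 417 in C/EBPβ enh-/- cells, for H2AC11, at 268 and 183 against 191 and 164, and for H2AC25, at 94.2 and 69.8 against 89.6 and 28.0. The 7 tested H2A genes had a median of -0.68 (-0.34 without WT library 1 and -0.37 without C/EBPβ enh-/- library 2), and the class sum was 3400 and 2164 in WT and 2161 and 1604 in C/EBPβ enh-/- cells.

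The H2B genes had the median nearest 0 of the classes, an order that was not tested and that turned when single libraries were left out. Only H2BC21 and H2BC4 were below both WT libraries. H2BC21 had FPKM values of 68.8 and 77.2 in WT and 53.8 and 40.3 in C/EBPβ enh-/- cells, and H2BC4 had 752 and 576 against 568 and 470. The most abundant H2B gene, H2BC5, had 934 and 768 in WT and 861 and 616 in C/EBPβ enh-/- cells, with the second WT value below the first C/EBPβ enh-/- value. The same overlap was seen for H2BC11 (729 and 508 against 591 and 341) and H2BC12 (512 and 456 against 465 and 304). H2BC13 had 285 and 238 in WT and 294 and 180 in C/EBPβ enh-/- cells, H2BC18 had 164 and 271 against 178 and 139, and H2BC26 had 48.0 and 75.3 against 69.5 and 21.4. H2BC15 was level, at 180 and 193 in WT and 204 and 172 in C/EBPβ enh-/- cells. The median of the 9 tested H2B genes was -0.36, and -0.04 without C/EBPβ enh-/- library 2. Without WT library 1 it was -0.18 beside -0.14 for the H3 genes, and without C/EBPβ enh-/- library 1 it was -0.60 beside -0.47. The class sum overlapped as deposited, at 3673 and 3162 in WT and 3284 and 2283 in C/EBPβ enh-/- cells. It did not overlap after rescaling to the same total (ratio 0.798).

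H3 and H4 form the tetramer at the core of the nucleosome. H3C13 (ENSG00000183598.3, chr1:149784780-149785248, GRCh37, minus strand, a single exon) had FPKM values of 447 and 316 in WT and 184 and 145 in C/EBPβ enh-/- cells. The genotypes did not overlap, the ratio of means was 0.431 (381 ± 92.4 in WT, 165 ± 27.7 in C/EBPβ enh-/- cells, SD, n = 2), and its adjusted p was the lowest of the members (log2 fold change -1.20 ± 0.26, SE; limma, adjusted p = 0.0741). H3C4 had 597 and 414 in WT and 394 and 358 in C/EBPβ enh-/- cells, also without overlap. H3C12 was low, at 2.76 and 2.99 in WT and 4.22 and 2.88 in C/EBPβ enh-/- cells, and had the highest log2 fold change of the members, 0.22 ± 0.26 (SE), which was 0.0011 without C/EBPβ enh-/- library 1 and 0.43 without C/EBPβ enh-/- library 2. The median of these 3 genes was -0.40, and it was -0.14 without WT library 1 and -0.67 without WT library 2. The class sum was 1046 and 733 in WT and 583 and 506 in C/EBPβ enh-/- cells.

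All 5 H4 genes, which encode the same protein, were tested. H4C16 (ENSG00000197837.3, chr12:14920933-14924065, GRCh37, minus strand), the only member on chromosome 12, had FPKM values of 383 and 253 in WT and 179 and 106 in C/EBPβ enh-/- cells, 318 ± 92.0 against 142 ± 51.7 (SD, n = 2). Its log2 fold change was -1.17 ± 0.33 (SE; limma, adjusted p = 0.119). H4C2 had 468 and 643 in WT and 351 and 406 in C/EBPβ enh-/- cells and was one of the 8 tested members with WT library 2 above WT library 1. H4C3 had 535 and 306 against 231 and 225. In these 3 genes both C/EBPβ enh-/- libraries were below both WT libraries, while H4C8 (1000 and 640 against 666 and 541) and H4C11 (81.8 and 42.2 against 83.3 and 29.6) overlapped. The median of the class was -0.54 (-0.84 without C/EBPβ enh-/- library 1) and its sum was 2468 and 1883 in WT and 1510 and 1307 in C/EBPβ enh-/- cells.

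By cluster, the HIST2 members had a lower median and a lower summed ratio than the HIST1 members, a difference described here without a test. The HIST2 cluster at 1q21 held 8 members, of which 5 were tested. Of these, 4 (H3C13, H2AC20, H2AC21 and H2BC21) were below both WT libraries and the fifth, H2BC18, overlapped, with a median log2 fold change of -0.82. Both C/EBPβ enh-/- libraries were below both WT libraries for 532 of the 1234 tested genes of chromosome 1 and for 37.5% of all tested genes. Its summed FPKM was 1660 and 1331 in WT and 897 and 715 in C/EBPβ enh-/- cells, giving a ratio of 0.539 that stayed free of overlap after rescaling to protein-coding genes (0.622). The median over chromosome 1 was -0.22 (1234 tested genes) and over chromosome 12 also -0.22 (662). BOLA1, the only other tested gene inside the HIST2 span, had values of 18.9 and 14.8 in WT and 12.8 and 8.59 in C/EBPβ enh-/- cells. The HIST3 cluster at 1q42 held H2AC25 and H2BC26, whose sum was 142 and 145 in WT and 159 and 49.4 in C/EBPβ enh-/- cells. Their median of -0.65 became 0.17 without C/EBPβ enh-/- library 2, so it rested on that library.

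In the HIST1 cluster at 6p22, 20 of 24 members were tested, with a median of -0.38 (-0.14 without WT library 1, -0.63 without WT library 2 and -0.21 without C/EBPβ enh-/- library 2). Of these, 8 were below both WT libraries and 12 overlapped, so their share below was near the 37.5% of all tested genes, while on chromosome 6 as a whole 110 of 647 genes were below and 176 above. The cluster has a histone-rich block nearer the telomere, from H2AC1 to H4C8, and another beyond a gap, from H2BC11 to H3C12, and these blocks were separated after their values had been seen. The first block had a median of -0.54 over 11 tested members, all 8 of the non-overlapping members included. The second had a median of -0.18 over 9 members, all of which overlapped. The first median was -0.16 without WT library 1, and the second was 0.13 without C/EBPβ enh-/- library 2, so its sign rested on that library. Without WT library 2 the medians were -0.78 and -0.44. The second was also -0.045 without WT library 1 and -0.53 without C/EBPβ enh-/- library 1, and the difference between the blocks was not tested. Summed FPKM was 8576 and 5586 in WT and 5244 and 4258 in C/EBPβ enh-/- cells in the first block, and 3088 and 2361 against 2776 and 1857 in the second. After rescaling to protein-coding genes the sums of the first block also overlapped (ratio 0.773). Genes other than histone genes inside the HIST1 span had a median of 0.30 over 20 tested genes (0.46 without WT library 1, 0.45 without C/EBPβ enh-/- library 2, and 0.18 without either of the others), of which 1 was below and 5 above both WT libraries, 14 overlapped and 0 passed the threshold, and their difference from the members was not tested. The 3 most abundant of them were HMGN4 (47.4 and 42.9 in WT, 59.4 and 37.1 in C/EBPβ enh-/-), GUSBP2 (32.0 and 1.91, 4.46 and 24.3) and ZNF322 (12.96 and 10.09, 17.49 and 16.27). Over all 647 tested genes of chromosome 6 the median was 0.11.

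The upstream sequences of 33 members, 26 of them tested, were available from RefSeq (GRCh38.p14, 250 bases before to 50 after the start) and were searched on both strands. CCAAT, the site of the factor NF-Y, was in 22 of the 26 (34.6% of 35116 promoters of all genes), with the nearest copy starting a median of 68 bases before the start. TATAA, the core of the TATA box, was in 23 (20.4% of all promoters), and in 22 of these the nearest copy began 27 to 33 bases before the start. All 4 H4 promoters lacked CCAAT and held TATAA, whereas every H1, H2A, H2B and H3 promoter held CCAAT. ATTTGCAT, the octamer bound by POU2F1, was in 10 members (1.77% of all promoters), 5 each of H2A and H2B. TTGCNNAA, a form of the C/EBP recognition sequence, was in 9 members (10.5% of all promoters), overlapping the octamer in 4 and CCAAT in 2. The median log2 fold change was -0.45 with the octamer and -0.48 without it, and -0.32 with TTGCNNAA and -0.62 without it. These differences were not tested. Of the members with TTGCNNAA, H1-5, H2AC11, H2AC13, H2BC11 and H2BC13 lie in the second HIST1 block, whose median was -0.18. Also among them, H2BC21 and H2AC20, H2BC11 and H2AC11, and H2BC13 and H2AC13 are head-to-head pairs. H3C4 has a further listed start at that of H2AC7, which was not used, and promoters of head-to-head pairs share bases.

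The 250 bases before the start are shown for the 3 members with the lowest log2 fold changes, with CCAAT and TATAA of either strand in capitals and the sequence in the direction of transcription (RefSeq, GRCh38.p14). They are at chr6:26017788-26018037, chr1:149813694-149813943 and chr12:14771132-14771381, all on the minus strand. H4C16 has TATAA and no CCAAT, and the other promoters have both.

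H1-1: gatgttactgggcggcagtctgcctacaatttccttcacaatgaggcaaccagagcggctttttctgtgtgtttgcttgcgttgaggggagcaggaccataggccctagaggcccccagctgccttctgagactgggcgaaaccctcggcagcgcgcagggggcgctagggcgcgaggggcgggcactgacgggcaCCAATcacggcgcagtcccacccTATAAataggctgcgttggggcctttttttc
H3C13: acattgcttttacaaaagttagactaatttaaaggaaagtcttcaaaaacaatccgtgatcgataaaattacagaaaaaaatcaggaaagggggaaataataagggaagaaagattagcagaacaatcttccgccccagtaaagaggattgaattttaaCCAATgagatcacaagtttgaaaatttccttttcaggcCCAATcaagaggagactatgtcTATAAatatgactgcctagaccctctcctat
H4C16: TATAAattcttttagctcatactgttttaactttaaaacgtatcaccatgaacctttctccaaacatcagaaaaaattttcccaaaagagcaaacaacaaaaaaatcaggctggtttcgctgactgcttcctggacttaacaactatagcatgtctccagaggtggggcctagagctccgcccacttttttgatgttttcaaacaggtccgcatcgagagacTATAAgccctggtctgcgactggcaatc

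Head-to-head pairs share the bases between their starts, and 6 such pairs with at most 400 bases between them were found among the members. Their values are given side by side without a test. H2BC21 and H2AC20 had log2 fold changes of -0.63 and -0.92, H2AC25 and H2BC26 of -0.68 and -0.62, H2BC4 and H2AC6 of -0.35 and -0.69, H2BC11 and H2AC11 of -0.44 and -0.32, and H2BC13 and H2AC13 of -0.18 and -0.18. Leaving out 1 library brought H2BC11 to -0.044 (without C/EBPβ enh-/- library 2), and without WT library 1 H2AC11 was -0.043, H2BC4 -0.16 and H2AC6 -0.34. Without C/EBPβ enh-/- library 2, H2AC25 and H2BC26 turned to 0.14 and 0.20, and H2BC13 and H2AC13 to 0.17 and 0.21. H2BC21 and H2AC20 stayed at or below -0.43 and -0.59 whichever library was left out. H2AC1 and H2BC1, a testis-expressed pair, were listed at 0 in 3 libraries and at 0.378 and 0.933 in C/EBPβ enh-/- library 1. The sequences between the starts of 3 pairs are given to compare a pair of the HIST2 cluster, the HIST3 pair and a pair of the second HIST1 block (GRCh37, plus strand, CCAAT and TATAA of either strand in capitals). They are at chr1:149858233-149858467, chr1:228645575-228645803 and chr6:27100575-27100821. The HIST3 sequence holds no TATAA.

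H2BC21 and H2AC20: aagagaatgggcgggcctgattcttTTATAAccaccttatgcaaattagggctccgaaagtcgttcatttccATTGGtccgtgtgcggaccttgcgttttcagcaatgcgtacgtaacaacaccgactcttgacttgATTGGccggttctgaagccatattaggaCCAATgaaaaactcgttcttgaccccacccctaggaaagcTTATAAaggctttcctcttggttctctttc
H2AC25 and H2BC26: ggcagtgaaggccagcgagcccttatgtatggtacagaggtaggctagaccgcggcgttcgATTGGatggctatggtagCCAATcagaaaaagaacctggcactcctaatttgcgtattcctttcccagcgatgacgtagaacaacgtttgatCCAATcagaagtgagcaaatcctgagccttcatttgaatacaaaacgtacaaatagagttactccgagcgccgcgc
H2BC11 and H2AC11: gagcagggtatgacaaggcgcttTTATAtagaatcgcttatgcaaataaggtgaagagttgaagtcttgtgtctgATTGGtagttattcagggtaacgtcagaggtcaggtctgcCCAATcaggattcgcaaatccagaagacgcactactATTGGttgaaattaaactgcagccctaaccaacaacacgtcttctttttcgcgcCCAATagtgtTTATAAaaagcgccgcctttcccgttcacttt

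Similar copies limit single-gene values. Within a class, coding sequences of equal length were identical at a median of 86.2% of bases for H2A, 90.7% for H2B, 86.3% for H3 and 82.7% for H4. H3C14 and H3C15 have the same coding sequence, and with H2AC18, whose transcript is also wholly repeated elsewhere in the clusters, they had values of 0 to 0.0968 in all libraries. A level near 0 for these 3 genes may therefore be set by how fragments with several matches were counted, which was not tested. H3C13 was identical to H3C14 and to H3C15 at 97.1% of coding bases. In its transcript 32.6% of the 50-base windows recurred elsewhere in the clusters, so the same untested limit falls on its level. At least 50% of the 50-base windows of the transcript recurred elsewhere in the clusters for 7 members, 3 of them tested (H2AC13, H2BC12 and H4C11), with a median log2 fold change of -0.24, against -0.54 for the 25 other tested members. The median of these 3 genes turned to 0.22 without WT library 1 and to 0.21 without C/EBPβ enh-/- library 2. H2BC12L had values of 0 to 0.127. Of 16 histone pseudogenes, 8 were at 0 in all libraries and 2 had a mean FPKM of at least 1, H2BC20P (2.90 and 5.35 in WT, 6.99 and 3.27 in C/EBPβ enh-/-) and H1-12P (0.970 and 4.58, 4.78 and 2.34).

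Some histone genes also have annotated transcripts that run past the stem-loop by more than 100 bases, which can be polyadenylated. There were 13 members with such a form, 11 of them tested, and their median log2 fold change of -0.44 stood beside -0.45 for the 17 tested members without one. Without WT library 1 these were -0.34 and -0.17, and without C/EBPβ enh-/- library 2 they were -0.21 and -0.37.

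Genes that act on histone mRNA had no common direction. Of 27 genes for its transcription, processing and decay, all tested, 0 passed the threshold, 9 were below and 8 above both WT libraries, and the median log2 fold change was -0.01. At an unadjusted p under 0.05, 4 were lower and 2 higher. Over all tested genes the shares were 37.5% below and 15.1% above both WT libraries, and 16.9% lower and 3.86% higher at that p. SLBP had FPKM values of 35.8 and 46.8 in WT and 43.8 and 38.0 in C/EBPβ enh-/- cells, and NPAT had 4.64 and 5.63 against 5.72 and 5.80. LSM11, a protein of the U7 particle, had 3.03 and 3.09 against 2.73 and 2.64, and CASP8AP2, which is needed for histone transcript processing, had 20.9 and 14.4 against 13.3 and 16.1. The genes of the list with the lowest log2 fold changes, named after their values were seen, were CPSF3, the endonuclease that cuts histone pre-mRNA, CPSF2, its partner, and MIF4GD, an SLBP-interacting protein. CPSF3 had 31.9 and 26.2 in WT and 12.5 and 13.3 in C/EBPβ enh-/- cells (-1.11 ± 0.22, SE) and the lowest adjusted p of the list, 0.0676 (limma). CPSF2 had 47.1 and 35.3 against 17.6 and 24.2, and MIF4GD had 8.95 and 8.80 against 4.11 and 4.46. In all 3 genes both C/EBPβ enh-/- libraries were below both WT libraries, and none passed the threshold.

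Histone variants, most of which are made outside S phase from mRNAs with poly(A) tails, were examined beside the members, although H2AX and H3-4 of this list hold the stem-loop. Of 20 listed, 17 were matched and 10 tested, with a median of -0.05 (0.088 without WT library 2, 0.084 without C/EBPβ enh-/- library 2, -0.17 without WT library 1 and -0.26 without C/EBPβ enh-/- library 1), of which 0 passed the threshold and 0 had an unadjusted p under 0.05. H2AZ1 had FPKM values of 302 and 373 in WT and 414 and 284 in C/EBPβ enh-/- cells, H3-3A had 99.4 and 160 against 135 and 113, and H3-3B had 357 and 287 against 336 and 207. H2AX, which can end at a stem-loop or with a poly(A) tail, had 27.73 and 26.05 in WT against 45.71 and 22.001. H1-10, a linker histone, was below both WT libraries, at 72.1 and 53.7 in WT and 48.7 and 31.2 in C/EBPβ enh-/- cells, and did not pass the threshold (limma, adjusted p = 0.255).

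Histone chaperones and S-phase genes were also followed, since histone synthesis is tied to DNA replication. The counts of both lists stand beside 37.5% of all tested genes below and 15.1% above both WT libraries, and 16.9% lower at an unadjusted p under 0.05. Of 18 chaperone genes, 12 were below and 3 above both WT libraries, with a median of -0.27, and 0 passed the threshold while 3 were lower at an unadjusted p under 0.05. ASF1B had FPKM values of 20.8 and 28.9 in WT and 27.5 and 16.6 in C/EBPβ enh-/- cells, and CHAF1A, a subunit of chromatin assembly factor 1, had 28.4 and 30.1 against 20.3 and 26.2. Of 20 S-phase genes, 19 were tested. Of these, 10 were below and 2 above both WT libraries, with a median of -0.30, and 0 passed the threshold while 6 were lower at an unadjusted p under 0.05. MCM2, a subunit of the replicative helicase, had 66.8 and 88.9 against 46.8 and 55.8 (limma, adjusted p = 0.232). PCNA, the replication clamp, had 167 and 202 against 187 and 217, and E2F1 had 8.21 and 10.8 against 5.00 and 12.1. In contrast to the histone members, the S-phase list had a median difference of 0.22 between WT library 2 and WT library 1, where the members had -0.46, and this contrast was not tested.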

How the data were processed

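The authors deposited 1 FPKM value per gene and library for 2 WT and 2 C/EBPβ enh-/- libraries, on hg19 gene identifiers. The submitters' processing notes name TopHat2 2.0.13, Cufflinks and edgeR, with no role or order, and read counts were not used here. Values were used as deposited on the log2(FPKM + 1) scale, keeping genes that averaged 1 FPKM or more. Fold changes are on that scale, which understates changes of low genes. The genotype contrast was fitted in R 4.3.3 by limma 3.58.1 with a trended eBayes prior and a two-sided test, adjusted by Benjamini-Hochberg over 12491 genes (threshold 0.05), and the fit was tested on simulated data. Symbols, coordinates and stem-loops came from GENCODE release 44 on GRCh37, and 2 genes under former names (H4C2 and H2AC18) were renamed through RefSeq synonyms. Of the file entries, 55535 of 57768 matched a symbol. Tables and figures used Python 3.11.15, pandas 2.3.3 and matplotlib 3.10.9. The members and gene lists were chosen with earlier results of these data known. Every tested member was named, with the 5 highest untested ones, CEBPB, preset genes of each list, list genes past the threshold and 3 other genes of the clusters. A preset gene of the variant list is not reported here. Depth was only approximated from the spacing of low FPKM values, and 2 libraries per genotype limit the precision. Alternatives were other pseudocounts, filters and scalings, a replicate block, GC and length correction, leaving out each library, and, added after seeing the data, protein-coding genes alone and a protein-coding rescaling. Same-numbered libraries were not treated as pairs, since their deviations had a correlation of 0.0094 over all tested genes. That value does not describe the members. Of their 28 tested genes, 20 were lower in library 2 than in library 1 of WT, and 25 in C/EBPβ enh-/- cells.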

Additional observations from a re-analysis of the deposited data

How the results depend on the processing

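No member passed the threshold under any alternative but 1, and the members' median stayed below 0 in all of them, between -0.23 without WT library 1 and -0.72 without C/EBPβ enh-/- library 1. Centring on the median moved the median of all genes from -0.14 to 0.034, and that of the members to -0.27. With protein-coding genes alone, added after seeing the data, 2 members passed, H1-1 (limma, adjusted p = 0.0484) and H3C13 (adjusted p = 0.0337), which is 1 gene each for the H1 and H3 classes and the HIST1 and HIST2 clusters, both of them without a transcript past the stem-loop, against 457 genes lower (4.19%) and 60 higher there. 1 processing gene and 1 S-phase gene passed with them. Fewer genes were adjusted over, and the spread was estimated among them.

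Without a filter on low values 0 genes rose and 0 fell, and the medians were 0 for all genes, -0.038 for H3, -0.53 for HIST2 and, for other genes, 0.00021 inside HIST1 and -0.046 inside HIST2. Among genes that averaged 5 FPKM or more, 20 genes rose and the H3 median was -0.80 over 2 genes. Genes that fell numbered 61 after rescaling to the same total, 68 after centring, 93 with a replicate block, 99 with the GC and length correction, 48 with both and 58 after rescaling to protein-coding genes. The median of all genes was 0.0099 with the correction and 0.047 after rescaling to protein-coding genes. The medians after centring, correction and that rescaling were 0.17, 0.16 and 0.20 for processing genes and -0.10, -0.11 and -0.056 for chaperones. The S-phase median was -0.13 after centring and -0.10 after the rescaling. The replicate block changed no call of a member, though it ended that of KRT18, and crossing the numbers was not tried.

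Leaving out each library in turn left 3 to 20 genes higher and 9 to 22 lower, with medians of -0.19 to -0.10 for all genes, -1.18 to -0.26 for H1, -0.10 to 0.10 for processing genes and -0.36 to -0.22 for chaperones. A lone library is then assumed to vary like the other genotype. Signs turned for some genes. H1-5 was 0.17 with the correction (with or without the block), 0.15 after centring and 0.19 after rescaling to protein-coding genes, and the others of this kind were, in the order correction and rescaling, H2BC13 (0.013 and 0.039), H2AC13 (0.016 and 0.042), SLBP (0.15 and 0.21, 0.17 centred), LSM11 (0.019 and 0.023, 0.035 centred), H3-3A (0.091 and 0.19, 0.14 centred) and ASF1B (0.00020 and 0.018). H2BC5 was 0.0010 after that rescaling and H2BC15 -0.0035 after rescaling to the total. Leaving out libraries gave H2BC5 -0.46 to 0.024, H2AC25 -1.50 to 0.14, H1-5 -0.17 to 0.12, H2BC13 -0.53 to 0.17, H2AC13 -0.57 to 0.22, H2BC26 -1.45 to 0.20, H4C11 -0.97 to 0.50, H2BC15 -0.11 to 0.13, SLBP -0.20 to 0.18, CASP8AP2 -0.48 to 0.022, H2AX -0.28 to 0.74, H2AZ1 -0.24 to 0.30, H3-3A -0.37 to 0.31, H3-3B -0.62 to 0.072, ASF1B -0.54 to 0.16, PCNA -0.0047 to 0.27 and E2F1 -0.80 to 0.33. The cause of these shifts was not tested.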
